A study of Mus musculus with 29 samples.

Results

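Fc gamma receptors bind the constant part of IgG antibodies on the surface of blood cells. The 5 genes described here are Fcgr1, Fcgr2b, Fcgr3 and Fcgr4, which encode the mouse receptors, and Fcer1g, which encodes the signalling chain that Fcgr1, Fcgr3 and Fcgr4 need. They were chosen by name from the 50384 gene symbols of the table, and all 5 were above 0 in every library. Total RNA of whole blood had been sequenced from 29 male mice (strain LJ in the labels). Each animal gave 1 library, so animals are the replicates. All animals were sampled at day 120. The sham group (n = 10) had a dose of 0 Gy and an outcome given as Live, and 2 groups had received 11.35 Gy of upper body irradiation, with outcomes given as Live (n = 10) and Die (n = 9). The labels name no batch. Globin and ribosomal transcripts were removed before sequencing, and the study asks whether blood RNA reflects delayed lung injury and survival.

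Receptors of this family differ in affinity and in the signal that they give. Fcgr1 encodes the high affinity receptor, found on monocytes, macrophages and some dendritic cells. Fcgr3 encodes a low affinity activating receptor of myeloid and natural killer cells, and Fcgr4 one of intermediate affinity on neutrophils and monocytes, above all non-classical monocytes. Activating receptors signal through the Fcer1g chain, whose ITAM (immunoreceptor tyrosine-based activation motif) is phosphorylated by Src family kinases and then binds the kinase Syk. Fcgr2b encodes the inhibitory receptor, the Fc gamma receptor of B cells, also found on myeloid cells. Its ITIM (immunoreceptor tyrosine-based inhibition motif) recruits the phosphatase Ship1.

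The codons of both motifs are given here, with the tyrosine codons in capitals. The letters of the ITIM pattern alone do not mark the inhibitory gene: a scan of the translated coding sequences also matched them 3 times in Fcgr1, 1 time in Fcgr4 and 1 time in Fcer1g. The ITAM pattern was matched in Fcer1g and not in Fcgr1, Fcgr2b, Fcgr3 or Fcgr4. In Fcer1g the ITAM lies in codons 65 to 79 of 86 (chr1:171229889-171230072, minus strand, GRCm38, 45 coding bases joined across an intron). In Fcgr2b the ITIM lies in codons 317 to 322 of 340 (chr1:170961071-170961088, minus strand, within 1 exon).
Fcer1g ITAM: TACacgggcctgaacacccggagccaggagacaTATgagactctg
Fcgr2b ITIM: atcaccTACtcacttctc

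All 5 are protein-coding genes, and 4 of them lie close together on chromosome 1. In GENCODE M21 on GRCm38, Fcgr2b runs from 170958617 to 170976547, Fcgr4 from 171018920 to 171029761, Fcgr3 from 171051174 to 171064935 and Fcer1g from 171229572 to 171234365. Fcgr4 is on the plus strand and the other three on the minus strand. No protein-coding gene lies between Fcgr2b and Fcgr4 or between Fcgr4 and Fcgr3, and 7 lie between Fcgr3 and Fcer1g. Fcgr1 stands apart, on chromosome 3 from 96282909 to 96293969 on the minus strand.

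Fcgr2b and Fcgr3 have nearly the same sequence in the part that binds IgG. Of the distinct stretches of 31 bases in their transcripts, 233 occur in both, which is 4.15% of those of Fcgr2b and 13.4% of those of Fcgr3. No other pair of the 5 genes shares any. Fcgr2b also shares 224 (3.99%) and Fcgr4 17 (1.39%) with genes outside the 5. The values of Fcgr2b, Fcgr3 and, for its smaller share, Fcgr4 are therefore uncertain to the extent that reads from shared parts were divided between genes. The longest shared coding stretch has 129 bases. It crosses an exon junction in both genes and spans chr1:170966674-170968081 in Fcgr2b and chr1:171054167-171057792 in Fcgr3 (minus strand). It is shown because reads inside it do not tell the inhibitory gene from the activating one.
Shared by Fcgr2b and Fcgr3: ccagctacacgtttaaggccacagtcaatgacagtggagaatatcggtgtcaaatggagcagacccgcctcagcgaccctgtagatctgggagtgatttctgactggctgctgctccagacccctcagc

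The values are normalised counts, scaled by the authors so that libraries can be compared. They are not known to be per length, so levels of different genes are not compared. Library totals ranged from 19.6 M to 55.7 M and hemoglobin took 1.90% to 7.43% of the values. The 7S RNA share was 17.9% ± 6.57 (SD) in the 10 sham, 27.4% ± 9.34 in the 10 Live and 14.2% ± 10.8 in the 9 Die libraries. Libraries of 3 animals stood apart, because 828 (sham replicate 1), 754 (Die replicate 2) and 506 (Die replicate 14) of the 11519 genes averaging 50 or more were at 0 there. The highest such number elsewhere was 220. These libraries hold the lowest value of each of the 5 genes. Changes of these genes and of most gene lists are therefore also given without the 3 libraries.

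Fcgr1, the high affinity receptor gene, had lower values in irradiated blood, but the difference did not pass the test over all genes. Normalised counts of Fcgr1 in sham ran from 49.4 through a median of 348 to 609. In Live animals the lowest, median and highest were 29.7, 84.7 and 389, and in Die animals 27.2, 181 and 438. The groups overlapped. Sham replicate 1 lay well below the other sham animals, whose lowest value was 139. Live animals were widely spread: 9 of 10 fell below the sham median and 3 below the lowest sham animal. Of the Die animals, 8 of 9 were below the sham median and 1, Die replicate 14, was below the lowest sham animal. Live replicate 7 and Die replicate 11 were the 2 irradiated animals above the sham median.

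Mean normalised counts of Fcgr1 were 351 ± 205 (SD) in the 10 sham, 139 ± 122 in the 10 Live and 188 ± 118 in the 9 Die animals. Against sham, the log2 change in Live animals was -1.51 ± 0.50 (SE), with a 95% confidence interval of -2.53 to -0.50, an unadjusted p of 0.00465 and an adjusted p of 0.313 in limma's test across 24310 genes. That is a fold of 0.350, with an interval of 0.173 to 0.708. For both irradiated groups together the log2 change was -1.20 ± 0.44 (SE, adjusted p = 0.461 with limma, lower than the sham median in 17 of 19 animals). In Die animals it was -0.90 ± 0.51 (SE, adjusted p = 0.635 with limma), and -0.94 ± 0.50 without the 3 libraries (adjusted p = 0.640). Live and Die animals were set against the same 10 sham animals, so these changes are not independent. Die minus Live was 0.62, with an interval of -0.43 to 1.66 (adjusted p = 0.678 with limma), so a lower value and a higher value in Die animals both lie within the interval. With the 7S share as a covariate, which differs between these groups, it was 1.31 ± 0.57 (SE, adjusted p = 0.979), and without the 3 libraries 0.85 ± 0.49 (adjusted p = 0.646).

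Without the 3 libraries with many genes at 0, the change of Fcgr1 was -1.79 ± 0.46 (SE) in Live animals (adjusted p = 0.0751 with limma) and -1.36 ± 0.41 in both irradiated groups (adjusted p = 0.166). With limma's array weights, which give noisier libraries less weight, it was -1.81 ± 0.39 (adjusted p = 0.00777) in Live animals and -1.41 ± 0.33 (adjusted p = 0.0188) in both irradiated groups. That was the only setting tried in which any of the 5 genes passed. Array weights also raised the number called among all genes, as given with the 4 comparisons.

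**Figure D1:**
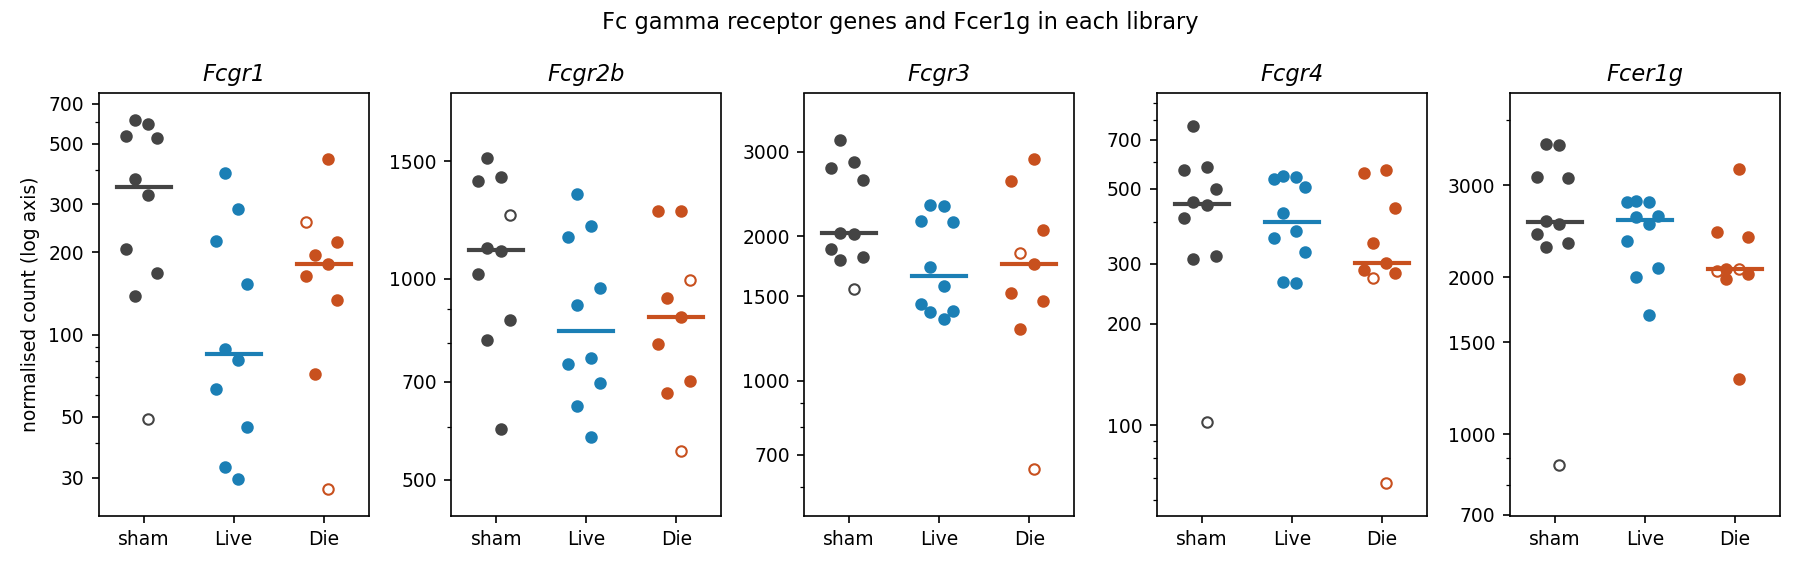
Normalised counts (log axis) of the 5 genes in each of 29 libraries, in sham, Live and Die animals, with a line at each group's median. Open circles are the 3 libraries with many genes at 0. The Fcgr1 medians are 348, 84.7 and 181, and the groups overlap for every gene.

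Fcgr3, the low affinity activating receptor gene, was also lower on average without passing. In sham the lowest, median and highest normalised counts were 1552, 2029 and 3178. They were 1342, 1654 and 2328 in Live and 653, 1749 and 2898 in Die animals. The groups overlapped, and Die replicate 14 stood alone at the bottom. Values were below the sham median in 6 of 10 Live and 6 of 9 Die animals, and below the lowest sham animal in 4 of each group. The log2 change was -0.37 ± 0.17 (SE, unadjusted p = 0.0399, adjusted p = 0.646 with limma) for both irradiated groups, -0.33 ± 0.20 for Live (adjusted p = 0.768) and -0.40 ± 0.20 for Die animals (adjusted p = 0.585). When the 3 libraries were left out, these values were -0.34, -0.39 and -0.29. Die minus Live was -0.072, with an interval of -0.48 to 0.34, and 0.098 without the 3 libraries.

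Fcgr4, the receptor gene of neutrophils and non-classical monocytes, had near equal averages in sham and Live animals. Its lowest, median and highest normalised counts were 103, 452 and 766 in sham, 263, 399 and 545 in Live and 67.6, 303 and 570 in Die animals. The 2 lowest animals were sham replicate 1 and Die replicate 2, both with many genes at 0, and the groups overlapped. Below the sham median were 6 of 10 Live and 7 of 9 Die animals. The log2 change was -0.0039 ± 0.31 (SE) in Live animals (adjusted p = 1 with limma), with an interval of -0.64 to 0.63, and -0.40 ± 0.32 in Die animals (adjusted p = 0.725). Over the 26 other libraries, the values were -0.22 and -0.29. Die minus Live was -0.40, with an interval of -1.04 to 0.25, and -0.065 without the 3 libraries.

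For Fcer1g, the shared signalling chain gene, 5 of 10 Live and 8 of 9 Die animals lay under the sham median. The lowest, median and highest normalised counts of Fcer1g were 871, 2551 and 3603 in sham, 1695, 2572 and 2796 in Live and 1276, 2076 and 3227 in Die animals. Sham replicate 1 was lower than every other animal, and the remaining sham animals began at 2284. The groups overlapped. The log2 change was -0.055 ± 0.19 (SE, adjusted p = 0.989 with limma) in Live and -0.23 ± 0.19 (adjusted p = 0.736) in Die animals. With the 3 libraries omitted, it was -0.22 ± 0.14 (adjusted p = 0.582) and -0.39 ± 0.15 (adjusted p = 0.471). Die minus Live was -0.18, with an interval of -0.57 to 0.21.

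Fcgr2b, the inhibitory receptor gene, was lower on average in both irradiated groups without passing. Its lowest, median and highest normalised counts were 596, 1105 and 1515 in sham, 578, 835 and 1339 in Live and 552, 877 and 1263 in Die animals. The groups overlapped almost completely, and 7 of 10 Live and 7 of 9 Die animals were below the sham median. The log2 change was -0.30 ± 0.19 (SE, adjusted p = 0.794 with limma) in Live and -0.31 ± 0.20 (adjusted p = 0.675) in Die animals. Without the 3 libraries the change was -0.28 in Live and -0.22 in Die animals. Die minus Live was -0.0038, with an interval of -0.40 to 0.39, and 0.060 without the 3 libraries.

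In limma's test at an adjusted p under 0.05, 0 of the 5 genes passed in any of the 4 comparisons. For irradiated against sham 4 of 24310 genes passed, which is 0.0165%, and 1799 had an unadjusted p under 0.05, among them Fcgr1 and Fcgr3. For Live against sham 10 passed, which is 0.0411%, and 1868 had an unadjusted p under 0.05, among them Fcgr1. In both comparisons that remain, Die with sham and Die with Live, 0 genes passed (0%). At an unadjusted p under 0.05 there were 2108 and 2514 genes, with 0 of the 5 among them. When the 3 libraries were left out, the share of genes called was 0.255% for irradiated and 0.473% for Live against sham. With array weights it was 1.98% and 2.95%. For irradiated against sham the median log2 change of all genes was 0.024, with 47.8% below 0, whereas the 5 genes had changes of -1.20, -0.30, -0.37, -0.20 and -0.14 in the order Fcgr1, Fcgr2b, Fcgr3, Fcgr4 and Fcer1g.

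**Figure D2:**
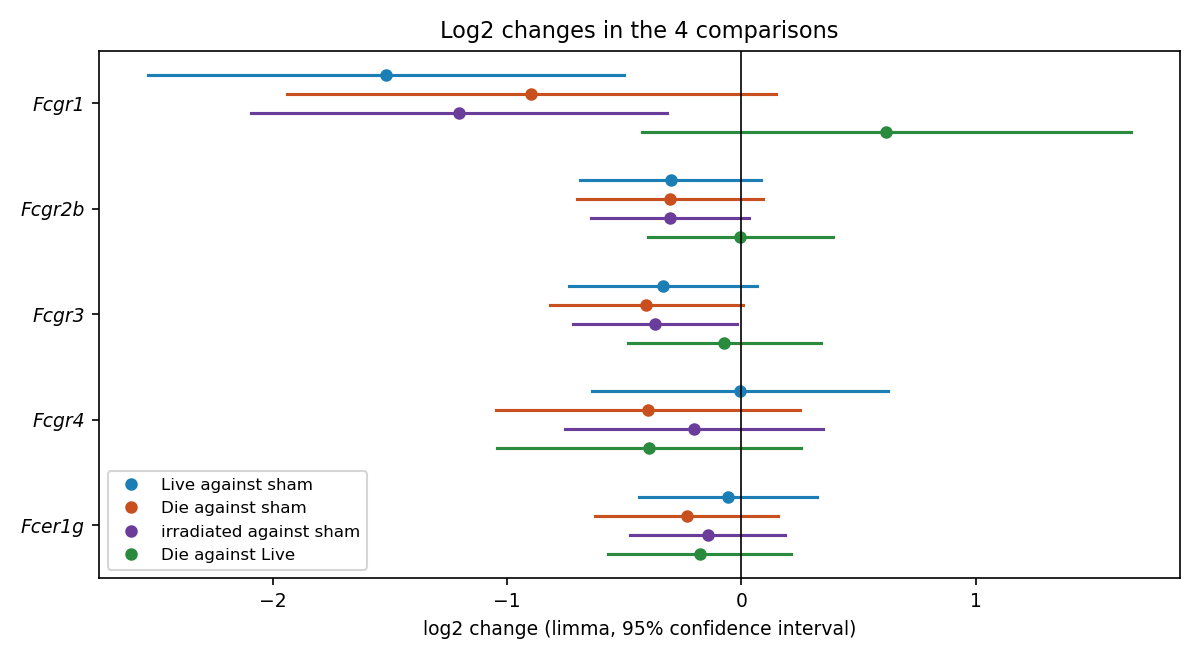
Log2 change (limma) of the 5 genes in 4 comparisons, with points at the estimate and bars for the 95% confidence interval. The interval of Fcgr1 lies below 0 for Live against sham (-2.53 to -0.50) and for irradiated against sham (-2.09 to -0.32), and every interval of Die against Live holds 0.

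Ratios within a library set the activating genes against the inhibitory gene without the scale of the library. Only their differences between groups are read, since the genes have different lengths, and they were not tested. The log2 ratio of Fcgr1 over Fcgr2b averaged -1.93 ± 1.12 (SD) over the 10 sham, -3.15 ± 1.46 over the 10 Live and -2.52 ± 1.003 over the 9 Die libraries. Under the sham median lay 9 of 10 Live and 9 of 9 Die animals, and the groups overlapped. Over the 26 other libraries, the means were -1.63, -3.15 and -2.35. Against Fcer1g, the gene of the chain that it needs, the Fcgr1 ratio had medians of -3.26 in sham, -4.84 in Live and -3.37 in Die animals. It was under the sham median in 8 of 10 Live and 5 of 9 Die animals. Die replicates 4 and 15 lay just above that median, each at -3.25. Without the 3 libraries the medians of this ratio were -3.06, -4.84 and -3.37. The ratio of Fcgr3 over Fcgr2b was 1.04 ± 0.37 in sham, 1.01 ± 0.41 in Live and 0.94 ± 0.53 in Die animals, and that of Fcgr4 over Fcgr2b was -1.41 ± 0.87, -1.12 ± 0.54 and -1.51 ± 0.98. These group means lay within 1 SD of each other. With the 3 libraries omitted, they were 1.12, 1.01 and 1.04 for Fcgr3 and -1.17, -1.12 and -1.24 for Fcgr4.

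**Figure D3:**
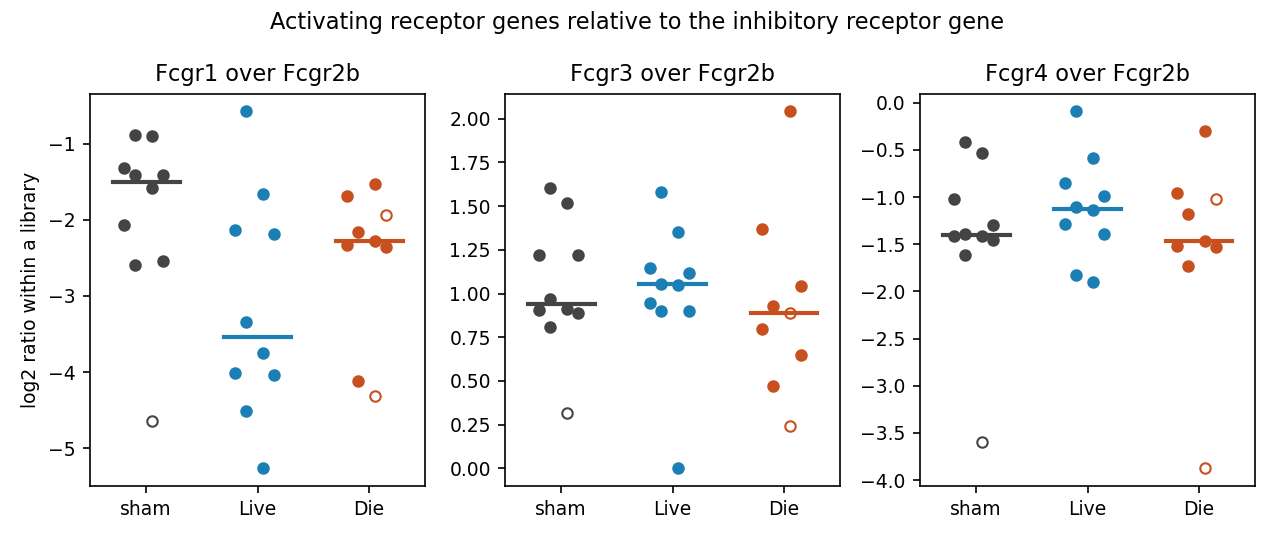
Log2 ratio of Fcgr1, Fcgr3 and Fcgr4 over Fcgr2b within each library, by group, with a line at the median and open circles for the 3 libraries with many genes at 0. For Fcgr1 the medians are -1.50 in sham, -3.55 in Live and -2.28 in Die animals.

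Each gene kept its own company among the other genes of blood. Likeness was the Spearman rho between 2 genes over the 29 libraries after the group means were removed, among 11518 other genes with a mean of at least 50. These values are descriptions, since the libraries share scaling, missing genes and cell makeup. Fcgr1 was most like Ly6c2 (rho 0.81), which encodes the surface antigen of classical monocytes, followed by Ifitm3 (0.78), an interferon-inducible membrane protein gene, Snx1 (0.77), a sorting nexin gene, Ly6a2 (0.75) and Trem2 (0.73), a lipid-sensing receptor gene of macrophages. Fcgr4 was most like Sla (0.83), an adaptor gene, Hp (0.80), which encodes haptoglobin, Tnfsf14 (0.79), the cytokine gene LIGHT, and Il1r2 (0.75), the interleukin 1 decoy receptor gene of neutrophils. Fcgr3 was most like the small GTPase genes Rab32 (0.89) and Rab31 (0.86), then Tm6sf1 (0.84), Pgam1 (0.82), a glycolytic enzyme gene, and Ncf4 (0.82), a subunit gene of the phagocyte oxidase.

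The inhibitory gene Fcgr2b was most like Ifngr1 (0.70), a chain of the interferon gamma receptor, Hgsnat (0.69), Msmo1 (0.68), a sterol synthesis enzyme gene, Myof (0.66) and Acot9 (0.65). Fcer1g was most like Rnasek (0.78), Rps16 (0.75), a ribosomal protein gene, Alox5ap (0.74), the leukotriene synthesis gene, Dynlt1b (0.74) and Cdc42 (0.74), a small GTPase gene. Without the 3 libraries the first-named genes had a rho of 0.76 for Ly6c2, 0.78 for Sla, 0.86 for Rab32, 0.74 for Ifngr1 and 0.82 for Rnasek. The order changed at the top for Fcgr1, Fcgr4 and Fcgr2b: Trem2 (0.77), Tnfsf14 (0.78) and Hgsnat (0.74) then came just before Ly6c2, Sla and Ifngr1.

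**Figure D4:**
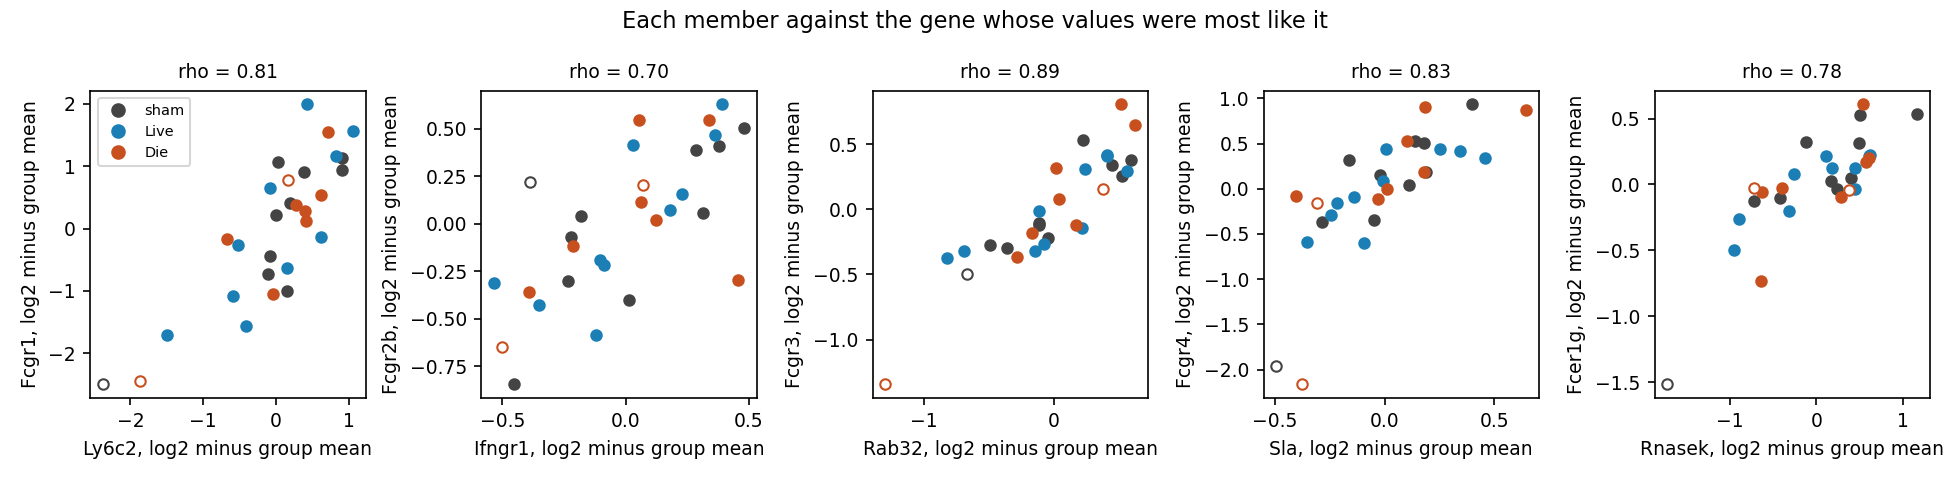
Each of the 5 genes (vertical axis) against the gene most like it (horizontal axis), as log2 values minus the group mean, 1 point per library and open circles for the 3 libraries with many genes at 0. Spearman rho runs from 0.70 for Fcgr2b with Ifngr1 to 0.89 for Fcgr3 with Rab32.

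Among themselves the 5 genes had a lower rho than with these leading genes, which had been picked as the highest of 11518. The gap follows largely from that choice. The highest rho was 0.62, between Fcgr3 and Fcgr4 (0.63 without the 3 libraries), and Fcgr1 with Fcgr3 followed at 0.61 (0.45 without them). Fcgr2b with Fcgr3, the pair that shares sequence, had 0.44. With the chain gene Fcer1g, the rho was 0.41 for Fcgr1, 0.40 for Fcgr4, 0.37 for Fcgr3 and 0.033 for Fcgr2b. In the same order, the values without the 3 libraries were 0.39, 0.20, 0.25 and 0.096. Fcgr1 with Fcgr2b had 0.18. Ranked among all 11518 genes by likeness to Fcgr3, Fcgr4 was at place 132 (72 without the 3 libraries). By likeness to Fcgr1, Fcgr3 was at place 58 (394 without them). By likeness to Fcgr2b, Fcgr3 was at place 206 (506 without them) and Fcer1g at place 5318.

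Classical monocyte markers moved with Fcgr1. All 10 were above 0 in at least 1 library of each group and all 10 had negative changes for Live against sham, with a median of -1.09, and 2 of them fell. The medians for irradiated and for Die against sham were -0.87 and -0.65, with 0 called. When the 3 libraries were left out, the Live median was -1.16 with 5 called lower, and the irradiated median -0.99 with 2. The 2 genes called in Live animals with all libraries were Ccr2, the chemokine receptor of classical monocytes (-1.40, adjusted p = 0.00592), and F13a1, a coagulation factor gene (-0.75 ± 0.15, SE, adjusted p = 0.0401 with limma). The summed normalised count of the list was 64080 to 151282 in sham, 34958 to 98850 in Live and 49950 to 98956 in Die animals. Ly6c2, the marker most like Fcgr1, had a change of -0.85 ± 0.34 in Live animals (adjusted p = 0.511). Their part in the lower Fcgr1 values was not tested, and in whole blood fewer cells of a type and less RNA per cell cannot be told apart.

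Markers of other cells that carry Fc gamma receptors were also above 0 in every group, and the lists were not tested against each other. For irradiated against sham, the median over 12 markers of non-classical monocytes was -0.45, with 12 below 0 and 1, Cx3cr1 (-1.36), called lower. In Die animals it was -0.61. Over the 26 other libraries, the irradiated median was -0.55 with 3 called lower. Their summed normalised count was 17617 to 33371 in sham, 10034 to 27941 in Live and 10265 to 39847 in Die animals. The 12 neutrophil markers had a median of -0.19, with 8 below 0 and 1, Cd177 (-1.36), called lower. S100a9 and S100a8 of that list had changes of 0.35 and 0.34 (adjusted p = 0.840 and 0.810). Neutrophil sums ran from 38738 to 111546 in sham, 20999 to 85659 in Live and 28708 to 112537 in Die animals. The part of these cells in the values of Fcgr3 and Fcgr4 was not tested.

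In the other cell type lists 0 genes were called in the 4 comparisons with all libraries. For irradiated against sham the median was -0.044 for 9 markers of natural killer cells, which carry Fcgr3, and 0.18 for 9 markers of B cells, which carry Fcgr2b. With the 3 libraries omitted, these medians were 0.26 and 0.25. It was 0.071 for 9 T cell markers, 0.16 for 8 platelet markers, 0.53 for 4 eosinophil markers, -0.051 for 8 markers of basophils and mast cells and -0.66 for 8 dendritic cell markers. Flt3, a growth factor receptor gene of dendritic cells, had a mean of 252 normalised counts in sham, 107 in Live and 152 in Die animals (log2 change -1.14 ± 0.28, SE, adjusted p = 0.169 with limma). It was the 1 gene of these lists called lower without the 3 libraries, for irradiated and for Live against sham.

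The ligands are IgG, and 0 of their 4 heavy chain genes passed in any comparison. The median change of Ighg1, Ighg2b, Ighg2c and Ighg3 was -0.42 for irradiated against sham, with 4 of 4 below 0, and -0.32 without the 3 libraries. The summed normalised count of the list had medians of 295 in sham, 302 in Live and 226 in Die animals. For Ighg1 the log2 change (-0.59) and the means ran in opposite directions, with means of 56.7 in sham, 63.1 in Live and 58.6 in Die animals. Ighg2b averaged 137 ± 51.8 normalised counts (SD) over the sham, 118 ± 59.4 over the Live and 108 ± 56.7 over the Die animals. Of 11 other Fc receptor genes, 0 passed and the median was 0.054. Fcer1a, which encodes the IgE-binding chain that pairs with Fcer1g on basophils and mast cells, had means of 25.5 ± 26.9, 28.7 ± 20.4 and 6.55 ± 9.31 normalised counts in sham, Live and Die animals. Its Die minus Live change was -3.27 ± 0.92 (SE, adjusted p = 0.348 with limma). Counts of Fcer1a were low in Die animals, and its change without the 3 libraries is not given. Fcrla, an Fc receptor-like gene of B cells, had a Die minus Live change of -0.39 ± 0.16 (adjusted p = 0.424).

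Other receptors that borrow the Fcer1g chain had 0 of 8 genes called and a median of -0.070 for irradiated against sham. Pira2, an activating paired immunoglobulin-like receptor gene, had all 19 irradiated animals under the sham median. It averaged 2453 ± 567 normalised counts (SD) over the sham, 1535 ± 458 over the Live and 1859 ± 393 over the Die animals. Its change in Live animals was -0.70 ± 0.17 (SE, adjusted p = 0.125 with limma). The Pir genes are a family of close copies, so this value is uncertain. Clec4n, the gene of the fungal receptor dectin-2, had a change of -0.75 ± 0.38 for irradiated against sham (adjusted p = 0.685). In the 6 related adaptor genes of immune receptors 0 were called and the median was 0.034, with Cd79b of the B cell receptor at 0.19. Hcst had opposite signs in the irradiated groups. Its changes were 0.22 ± 0.87 (SE) in Live and -2.09 ± 0.89 in Die animals (adjusted p = 0.993 and 0.526 with limma). Its means were 224 ± 68.6 (SD), 265 ± 94.7 and 169 ± 146 normalised counts in sham, Live and Die animals. Die animals were widely spread, and the change of Hcst without the 3 libraries is not given.

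Downstream of the activating receptors, 0 of 18 ITAM signalling genes passed, 15 had negative changes for irradiated against sham and the median was -0.21, against 47.8% of all genes below 0. Plcg2, which encodes a phospholipase of this pathway, was at -0.52 ± 0.18 on the log2 scale (SE, adjusted p = 0.447 with limma), and Card9, the adaptor gene, -0.71 ± 0.28 (adjusted p = 0.539). Without the 3 libraries Plcg2 was the 1 gene of the list called lower, for irradiated and for Live against sham, and the irradiated median was -0.23. Of 12 genes of inhibitory ITIM signalling 0 passed, 10 were below 0 and the median was -0.39. Sirpa, the receptor gene for CD47, had a change of -0.65 ± 0.19 (adjusted p = 0.271, below the sham median in 19 of 19), Cd300a one of -0.75 ± 0.24 (adjusted p = 0.372) and the phosphatase gene Ptpn6 one of -0.39 ± 0.15 (adjusted p = 0.525). When the 3 libraries were left out, Sirpa was called lower in the same 2 comparisons and the irradiated median was -0.34.

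Of 21 genes of Fc receptor phagocytosis 0 passed, 16 had negative changes for irradiated against sham and the median was -0.17. Myo1f, a myosin gene of myeloid cells, came nearest. It averaged 3752 ± 958 normalised counts (SD) over the sham, 2024 ± 918 over the Live and 2716 ± 671 over the Die animals, with 19 of 19 irradiated animals under the sham median. The change in Live animals was -0.97 ± 0.21 (SE, adjusted p = 0.0917 with limma). Marcks and Actr2, a substrate of protein kinase C and a subunit of the actin-nucleating Arp2/3 complex, had changes of -0.52 ± 0.17 (adjusted p = 0.305) and -0.39 ± 0.13 (adjusted p = 0.329) in Live animals. Over the 26 other libraries, Myo1f and Actr2 were called lower in Live animals and the irradiated median of the list was -0.21.

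For Die against Live the medians of these lists were 0.032 for ITAM signalling, 0.089 for ITIM signalling, 0.094 for phagocytosis and -0.36 for IgG heavy chains, with 0 genes called. With the 3 libraries omitted, they were 0.15, 0.20, 0.0998 and 0.11, so the sign turned for the IgG heavy chains. The phagocytosis genes Myo1f and Marcks had Die minus Live changes of 0.52 ± 0.22 (SE, adjusted p = 0.425 with limma) and 0.37 ± 0.17 (adjusted p = 0.460).

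The promoters of Fcgr1, Fcgr3 and Fcgr4 hold the letters GAGGAA, a core of the binding motif of the myeloid factor PU.1. Whether any factor binds there, or has a part in the changes of these genes, was not tested. RefSeq promoters on GRCm38.p6, from 250 bases before the start to 50 after it, were matched for 5 of 5 genes. On both strands, GAGGAA or its complement TTCCTC occurs in 28.3% of 32851 such promoters, TTCNNNGAA (the GAS element of STAT factors) in 8.30% and the interferon-stimulated response element, written as GAAA, any 2 bases and GAAA, in 3.44%. Fcgr1 has TTCNNNGAA 101 to 109 bases and TTCCTC 50 to 55 bases before its start, Fcgr3 has TTCCTC 1 to 6 bases before the first of its 2 listed starts and 10 to 15 before the other, and Fcgr4 has the interferon-stimulated pattern 64 to 73 bases and TTCCTC 17 to 22 bases before it. These letters were not found in the windows of Fcgr2b and Fcer1g. Matches are in capitals, in the direction of each gene.
Fcgr1, chr3:96294002-96294095, minus strand: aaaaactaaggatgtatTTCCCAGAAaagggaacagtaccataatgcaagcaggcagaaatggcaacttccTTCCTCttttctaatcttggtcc
Fcgr3, chr1:171059404-171059426, minus strand: caagagagtccatttccTTCCTC
Fcgr4, chr1:171018836-171018925, plus strand: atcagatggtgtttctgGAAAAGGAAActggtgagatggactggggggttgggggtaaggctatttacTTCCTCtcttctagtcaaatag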

How the data were processed

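Whole blood RNA of 29 mice was used as 1 table of 50384 symbols. The values are a normalised signal deposited by the authors, called normalised counts here. Per the submitters' processing notes, GRCm38 and these tools are named: sleuth, DESeq2, kallisto 0.44.0 and bcl2fastq 2.19, with no role or order given. Median ratios of libraries to the geometric means of genes were all 1.02, and 1.90% to 15.8% of values were whole multiples of the apparent value of 1 read (within 0.01), so reads were not recovered and depth is unknown.

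The test planned for such values was limma 3.58.1 (R 4.3.3) with a trend on log2(value + 0.5), in 1 model with 3 group means, fitted to the 24310 genes averaging 1 or more. Folds on this scale understate changes of low genes. Tests were two-sided, with Benjamini-Hochberg adjusted p under 0.05. Irradiated against sham used the equally weighted mean of Live and Die. Each list names every called gene of a pathway, otherwise up to 3 genes of smallest p, and up to 3 cell markers of highest mean; some of these are given only within their list. Ccr2, Cx3cr1 and Cd177 were named after their values were seen. Likeness used Spearman's rho with group means removed, naming up to 5 genes per member; some named-gene results are not reported here. Members and lists were chosen with earlier results of these data known.

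On simulated data with 200 changed genes of 24310, limma recovered 61% of changes of 1 (log2) for irradiated, 48% for Live and 46% for Die, each against sham, 45% for the Die and Live comparison, and 87%, 83%, 80% and 83% of changes of 2. Alternatives were other pseudocounts (1 and 5), other filters, array weights, quantile normalisation, left-out libraries, a 7S covariate, only the groups compared and a replicate block. Python 3.11.15, pandas 2.3.3, numpy 2.4.6, scipy 1.17.1 and matplotlib 3.10.9 were used.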

Additional observations from a re-analysis of the deposited data

Results flagged for a closer look

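Of 15 combinations of the 5 genes and 3 groups, 1 held a sample far from the others. Fcer1g in sham replicate 1 was 871.489 normalised counts, with the next sham animal at 2284, and the gap was 0.517 of the group's range against a critical value of 0.466. Chance flags about 1 in 20 groups. The same library listed 828 of 11519 expressed genes at 0.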

How the results depend on the processing

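The sign of the change of Fcgr1 was the same under each alternative run and each left-out library in all 4 comparisons, and Fcgr1 passed the threshold only with array weights. With 1 library left out its change ranged from -1.48 to -1.05 for irradiated and from -1.79 to -1.33 for Live against sham, with adjusted p of 0.122 to 0.793 and 0.115 to 0.553 (limma). The 7S share as a covariate gave -1.35 (adjusted p = 0.177) and -2.01 (adjusted p = 0.142), and 1.31 for Die against Live (adjusted p = 0.979).

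Signs near 0 turned. Fcgr2b for Die against Live became 0.076 with array weights and 0.060 without the 3 libraries that stand apart, and Fcgr3 became 0.14, 0.098 and, with the 7S covariate, 0.082. Fcer1g became 0.12 with the 7S covariate. With 1 library left out, Fcgr4 for Live against sham ranged from -0.22 to 0.10, Fcer1g for Live against sham from -0.22 to 0.0040, Fcgr2b for Die against Live from -0.072 to 0.077 and Fcgr3 for Die against Live from -0.17 to 0.096. The causes were not tested.

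The count of genes called for irradiated against sham (4) became 10 with a minimum mean of 50, 481 with array weights, 62 without the 3 libraries and 21 with the 7S covariate. For Live against sham (10) it became 40, 716 and 115 in the first 3 of these, and for Die against sham (0) 8 with array weights. With 1 library left out the counts ranged from 1 to 66, 5 to 50, 0 to 20 and 0 to 1 in the order irradiated, Live, Die and Die against Live; without sham replicate 1 they were 66, 41 and 20 in the first 3, and there were 50 for Live without sham replicate 10.

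Among same-numbered sham and irradiated animals, 0 of 10 pairs had a correlation over 0.1 in their deviations from the group means (range -0.19 to 0.040). This cannot show whether such animals were handled together. With the replicate block, which held fewer libraries, 0 genes were called for irradiated, Live and Die against sham, Fcgr1 was -1.40 and -1.90 (adjusted p = 0.567 and 0.716), Fcgr4 for Live turned to 0.14 and Fcer1g for Live to 0.048. The fit with only the groups compared gives no value for irradiated against sham, nor the block for Die against Live. Nothing is known of depth per library, and 45% to 61% recovery of a log2 change of 1 in simulated data limits what 0 calls can show.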
